A study of Mus musculus with 6 samples.

Results

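Internal coding microexons, taken as exons of 3 to 27 bases that lie inside a transcript and are translated in full, were described in the mouse gene annotation that served to count RNA sequencing reads in a study of mutant uromodulin. A member was a distinct exon position on a main chromosome that was neither the first nor the last exon of its transcript and was covered in full by a coding row of that transcript. There were 1667 such exons in 1169 genes. They made up 1.03% of the 161665 internal coding exons and 0.481% of the 346341 distinct exons on these chromosomes, and 6.91% of the genes with an internal coding exon held at least 1. The 159983 internal coding exons of 28 bases or longer, here called longer exons, served for comparison, and 15 exons of 1 or 2 bases belonged to neither class.

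The study compared mTAL cells, an immortalised epithelial line from the thick ascending limb (TAL) of the mouse nephron, after lentiviral transduction with GFP-tagged human uromodulin, either wild type or carrying C150S, under the spleen focus-forming virus promoter. RNA was sequenced from 3 libraries of wild type and 3 libraries of C150S cells, all at passage 3. The study used mixed populations of transduced cells and states that the TAL markers uromodulin and NKCC2 were not seen after immortalisation. Expression values were not analysed here, so neither a difference between the groups nor the use of any exon in these cells is given, and the TAL identity was not checked against expression.

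Microexons are exons of only a few codons. In vertebrate neurons many of them are included by the splicing factor SRRM4 and skipped in other cell types, and muscle uses a partly different set. An exon whose length is a multiple of a codon can be skipped without shifting the reading frame downstream of it. A read that crosses so short an exon has to be split over both of its junctions to be placed.

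The sequences below show microexons in genes of the neuronal list. They were chosen as examples of pairs and trios of related genes and of single cassettes (Src and Mef2d). Kif1a was chosen as a gene in which some of the microexons share their flanks. Letters were read from transcripts of GENCODE release M21 on GRCm38, the assembly that UCSC calls mm10, which held an identical exon for 1639 of the 1667 members (98.3%). Capitals mark the microexon and lower case marks the 9 spliced coding bases on each side, all written 5′ to 3′ on the coding strand. Positions refer to mm10.
Cpeb2 (chr5:43268869-43268892, plus strand): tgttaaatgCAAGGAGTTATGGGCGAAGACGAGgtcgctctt
Cpeb3 (chr19:37105791-37105814, minus strand): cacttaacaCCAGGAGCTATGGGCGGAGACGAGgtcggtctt
Cpeb4 (chr11:31918801-31918824, plus strand): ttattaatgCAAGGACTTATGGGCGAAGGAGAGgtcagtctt
Unc13a (chr8:71655503-71655508, minus strand): agcgacctgGCTATGtcattggtg
Unc13b (chr4:43233904-43233909, plus strand): agtgatctgGCTATGtcactggtc
Clasp1 (chr1:118547656-118547658, plus strand): cacagcaagAGAgttttcagt
Clasp2 (chr9:113887045-113887047, plus strand): catggcaagAGAgtgttcagc
Src (chr2:157458843-157458860, plus strand): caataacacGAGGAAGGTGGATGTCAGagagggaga
Mef2d (chr3:88161781-88161801, plus strand): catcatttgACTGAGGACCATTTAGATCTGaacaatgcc
Kif1a (chr1:93026832-93026855, minus strand): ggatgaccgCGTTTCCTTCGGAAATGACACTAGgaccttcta
Kif1a (chr1:93034546-93034572, minus strand): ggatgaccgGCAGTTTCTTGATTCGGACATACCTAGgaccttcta

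The microexons of Cpeb2, Cpeb3 and Cpeb4, which encode proteins that control translation through the poly(A) tail, were each 24 bases long. The Cpeb2 exon shared 21 of its 24 letters with that of Cpeb3 and 21 with that of Cpeb4, and those of Cpeb3 and Cpeb4 shared 18. In Unc13a and Unc13b, whose products prime synaptic vesicles, the 6-base exons shown were identical at all 6 letters. Clasp1 and Clasp2, which encode microtubule-binding proteins, each held an exon of 3 bases with the same 3 letters. These exons were among the more alike ones. Some other related genes came near them, with 24 of 27 letters shared by 27-base exons of Btnl4 and Btnl6. The 21-base exons of Eif4g1 and Eif4g3 shared 16 of 21. Other equal-length exons of related genes shared fewer letters. The other 6-base exon of Unc13a shared 2 of 6 letters with that of Unc13b, and the 24-base exon of Clasp1 shared 9 and 17 of 24 with those of Clasp2. The 12-base exons of Dnm1 and Dnm2 shared 2 to 8 of 12 letters, those of Shank1 and Shank3 11 of 24, and those of Tle1 and Tle4, genes of transcriptional corepressors, 2 to 11 of 17. In Kif1a, a kinesin motor for synaptic vesicles, exons of 24 and 27 bases were flanked by the same 9 bases on both sides, and each was in 1 of the 4 transcripts that span it.

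Members had a median length of 21 bases, against 124 bases for longer exons. Lengths divisible by 3 prevailed. Of the 1667 members, 1066 (63.9%) had such a length, 263 left a remainder of 1 base and 338 a remainder of 2 bases. Among longer exons 40.6% were divisible by 3. The range of 3 to 27 bases begins and ends with a multiple of 3, which raises its share, so shares were also taken over whole sets of 3 consecutive lengths, each starting at a multiple of 3. By this count 767 of 1368 exons of 3 to 26 bases (56.1%) and 1066 of 1858 exons of 3 to 29 bases (57.4%) were divisible by 3, against 43.3% of exons of 30 to 50 bases and 40.7% of all exons of 30 bases or longer. The share was 51.9% for exons of 3 to 8 bases, 65.3% for 9 to 14, 60.6% for 15 to 20 and 51.6% for 21 to 26. Single sets of 3 lengths ranged from 50.4% to 69.6% between 3 and 26 bases, and from 33.0% to 55.3% between 30 and 71 bases. The highest of the latter, 54 to 56 bases, was thus above the lowest of the former, 24 to 26 bases. Each of the 9 lengths divisible by 3 held more exons than the length 1 base shorter and the length 1 base longer.

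**Figure D1:**
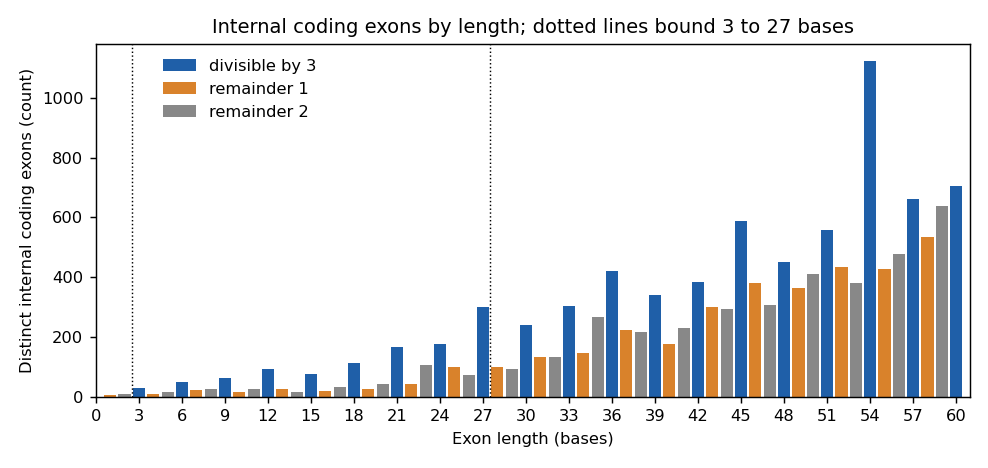
The plot of exon counts by length shows distinct internal coding exons (vertical axis, count) of 1 to 60 bases (horizontal axis), coloured by the remainder after division by 3. Within the dotted lines, which bound 3 to 27 bases, every length divisible by 3 stands above its neighbours, from 31 exons of 3 bases to 299 exons of 27 bases.

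At the lower limit there were 8 exons of 2 bases just outside and 31 exons of 3 bases just inside. At the upper limit 299 exons of 27 bases lay just inside and 99 of 28 bases just outside, so 27 bases was the commonest length of a member. Collagen genes supplied 55 of these 299 exons. Outside collagen genes 62.5% of 1585 members were divisible by 3.

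Skipping was read from the transcripts of the same gene. An exon was called skipped when it lay wholly within an intron of another transcript. By this measure 675 members (40.5%) were skipped, against 7.40% of longer exons. The share fell with length, from 64.8% at 3 to 9 bases to 59.1% at 10 to 15, 42.4% at 16 to 21 and 27.1% at 22 to 27, and on to 13.9% at 28 to 50 bases and 6.58% above 200 bases. Genes with more transcripts offer more chances to see an exon skipped. Genes with a member had a median of 5 transcripts, other genes with internal coding exons a median of 3. When only genes with at least 2 transcripts were taken, 51.4% of members and 10.1% of longer exons were skipped. The longer exons of the very genes that hold a member numbered 19584, of which 9.58% were skipped and 46.1% were divisible by 3. Of 1157 genes with both kinds of exon, the share skipped was higher for the members in 443, lower in 212 and 0 for both in 495.

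**Figure D2:**
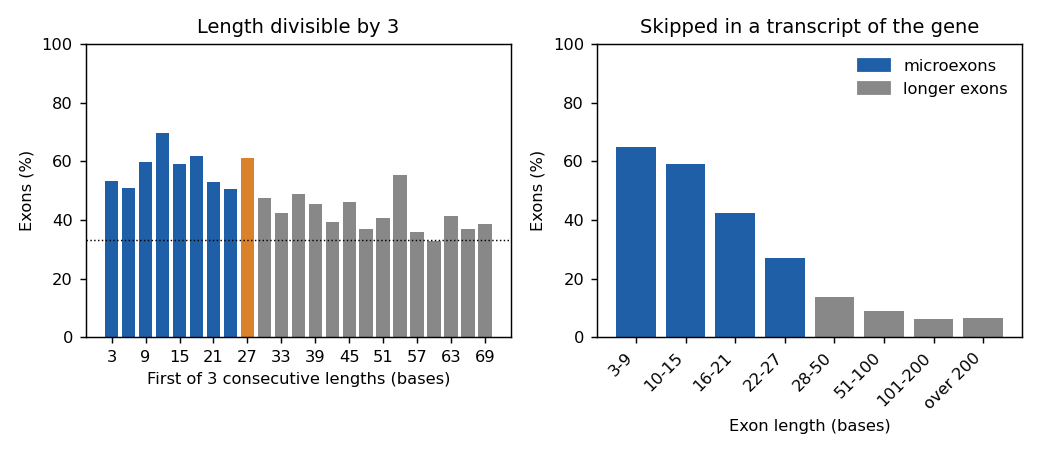
The left bars give the percent of exons with a length divisible by 3 in each set of 3 consecutive lengths, by the first length in bases, with a dotted line at an equal split among the 3 lengths. The right bars give the percent skipped in a transcript of the gene by length class in bases. Microexons are blue, longer exons grey, and the set of 27 to 29 bases, which holds both, orange. The blue bars on the left lie between 50.4% and 69.6% and the grey between 33.0% and 55.3%, and the share skipped falls in steps from 64.8% to 6.35% and stands at 6.58% above 200 bases.

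The annotation is a single file without replicates, so these shares were described and not tested. Chromosomes gave a view of their spread. On each of the 20 chromosomes with at least 30 members, the members had the higher share divisible by 3, which ranged from 43.3% to 76.4% against 38.9% to 42.7% for longer exons. Over 3 to 26 bases the share ranged from 37.0% to 68.6%, and it was above that of exons of 30 bases or longer on 19 of the 20, the exception being chromosome 18 with 27 such members. On each of the 20 they also had the higher share skipped, which ranged from 26.7% to 58.8% with a median of 38.8%, against a median of 6.46% for longer exons.

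Length and skipping were related through the kind of skipping. An exact cassette is an exon whose skipping intron joins the ends of the same neighbouring exons, so that only this exon is left out. Of 403 members that were exact cassettes, 349 (86.6%) were divisible by 3. Of 272 members skipped in other ways 49.6% were, and of 992 members not seen skipped 58.7% were. This last class includes exons of genes with a single transcript, in which skipping cannot be seen. Of all members 78.8% were in genes with at least 2 transcripts, and of longer exons 73.5%. Among exons of 28 to 50 bases the corresponding shares were 67.5%, 36.0% and 39.6%, and among all longer exons 56.2%, 40.3% and 40.0%. Cassettes thus had the highest share in each length class, and members had a higher share than either longer class for each kind of skipping. Over whole sets of lengths the shares were 83.7%, 46.7% and 47.4% at 3 to 26 bases, and 68.8%, 37.5% and 40.8% at 30 to 50 bases, with the same order between the length classes. Read the other way, 45.4% of the members divisible by 3 were skipped and 31.8% of the others.

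**Figure D3:**
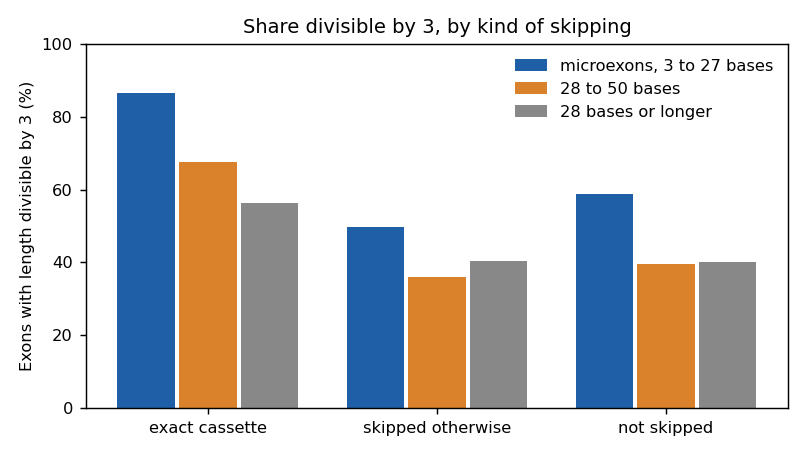
The bars show the percent of exons divisible by 3 (vertical axis) for exact cassettes, exons skipped otherwise and exons not skipped, in microexons (blue), exons of 28 to 50 bases (orange) and all exons of 28 bases or longer (grey). The bar of microexon cassettes is the tallest, at 86.6%. The ranges hold unequal numbers of lengths divisible by 3, and over 3 to 26 bases that share was 83.7%.

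Inclusion also differed in extent. An exon counted as present only in a transcript that listed it with the same start and end. A shifted splice site or a longer exon over it thus counted as absence. By this measure, of 1233 members spanned by at least 2 transcripts, 27.7% were present in every one of these, against 65.7% of longer exons. A longer exon of the gene overlapped 21.6% of members and 15.4% of longer exons. As an internal coding exon, 60.6% of members were supported by a single transcript, against 49.9% of longer exons. The tyrosine kinase gene Src (ENSMUSG00000027646) held its 18-base exon in 2 of 5 spanning transcripts. In Mef2d, which encodes a transcription factor of muscle and brain, the 21-base exon was in 1 of 4.

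Introns beside members were somewhat shorter at the median. The upstream intron had a median of 1081 bases, with quartiles of 345 and 3059, against a median of 1291 for longer exons. The downstream intron had a median of 995 bases, with quartiles of 294 and 2716, against 1198. On 15 of the 20 chromosomes the median upstream intron was shorter for members. Members not seen skipped, including those of genes with a single transcript, had medians of 853 bases upstream and 736 downstream. Longer exons not seen skipped had medians of 1283 and 1189 bases. Exact cassettes had medians of 1399 and 1430 bases, against 1666 and 1485 for longer cassettes. Members skipped otherwise had medians of 1760 and 1509 bases, against 1200 and 1127. Introns of at least 10000 bases lay upstream of 7.50% of members and 8.02% of longer exons, and downstream of 6.84% of members and 6.21% of longer exons. Within the genes that hold a member, longer exons had medians of 1217 bases upstream and 1160 downstream. With each gene counted once, the medians were 1187 and 1041 bases for members and 2130 and 1792 for longer exons, so the size of the difference depended on how genes were weighted.

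**Figure D4:**
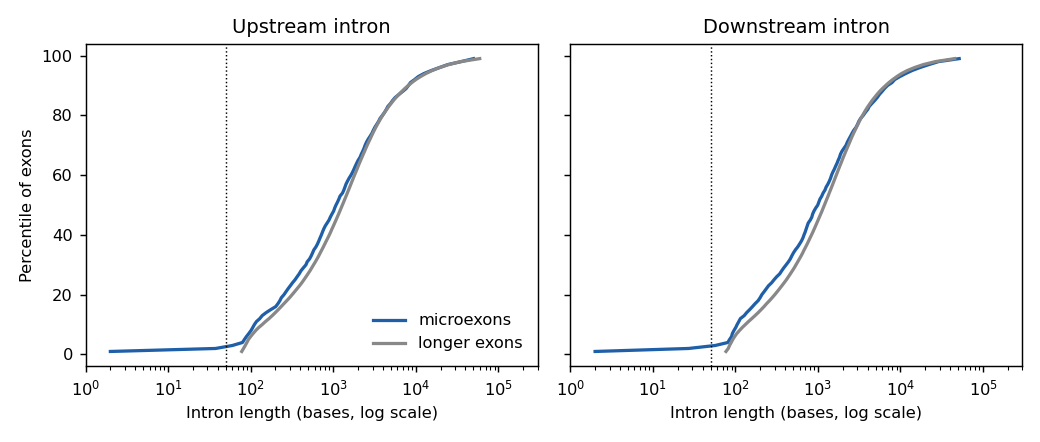
Each curve gives the percentile of exons (vertical axis) up to an intron length in bases (horizontal axis, log scale), for the upstream intron (left) and the downstream intron (right), in blue for microexons and in grey for longer exons. The blue curves lie to the left below the middle, with medians of 1081 against 1291 and 995 against 1198 bases, but from the 80th percentile the downstream blue curve lies to the right, with 6961 against 6609 bases at the 90th percentile. The dotted line marks 50 bases.

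A second group stood out at the short end. An intron under 50 bases, shorter than most introns known to be spliced in mammals, flanked 73 members (4.38%) and 0.164% of longer exons. In 51 of the 73 members the intron had 10 bases or less. Among exons of 3 to 9 bases the share with so short an intron was 13.4%, and among exons of 22 to 27 bases 1.75%. Gm10717, a predicted gene, had 7 members of 3 to 9 bases, of which 3 were followed by an intron of 2 bases. Without the 73, 64.9% of members were divisible by 3 and 40.4% were skipped.

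Members lay nearer the start of their transcripts. Of members 34.8% lay in the first part of 3 equal parts of the exon order and 24.8% in the last, against 30.8% and 30.6% of longer exons. The second exon of the transcript was a member's place in 11.6% of cases and a longer exon's in 7.48%. The codon phase also differed. Of 1021 members divisible by 3 with a single phase, 43.8% began with the first base of a codon, 40.0% began after 1 base of a codon and 16.3% after 2 bases. For longer exons divisible by 3 these shares were 56.3%, 30.4% and 13.2%.

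The letters of members were compared with those of longer exons. GC content was 48.2% over 32118 member bases, against 51.1% in longer exons and 48.4% in exons of 28 to 50 bases. Purines made up 57.3% of member bases, 55.8% at 28 to 50 bases and 52.5% in all longer exons, and within members 61.2% at 3 to 9 bases, 60.8% at 10 to 15, 55.9% at 16 to 21 and 56.9% at 22 to 27. The last base of an exon, which pairs with the U1 small nuclear RNA at the donor site, was G in 74.9% of members, 77.6% of exons of 28 to 50 bases and 80.0% of longer exons. It was G in 58.6% of members of 3 to 9 bases and in 78.3% of those of 22 to 27 bases. Members with an intron under 50 bases ended in G in 41.8% of cases and the other members in 76.3%. Of full codons within members outside collagen genes, 16.6% encoded lysine or glutamate, against 13.2% in longer exons outside collagen genes.

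Most genes with a member held only 1. This was so for 902 of 1169 gene names (77.2%), while 178 held 2 and 89 (7.61%) held 3 or more. Csn1s1 (ENSMUSG00000070702), which encodes the milk protein alpha-S1 casein, held the most, with 20 members among 29 internal coding exons. It was followed by BC051142 with 17, Col13a1 with 12, Dmbt1 and Gm6792 with 11 each, and Col23a1, Col25a1 and Tnnt3 with 9 each. Fcho2, which encodes an endocytic adaptor, Gm10717 and Trdn, which encodes the muscle protein triadin, held 7 each, as the next in order of number. All 20 members of Csn1s1, all 17 of BC051142, all 11 of Dmbt1, all 11 of Gm6792 and all 7 of Trdn were divisible by 3, and of these 5 genes only BC051142 had skipped members, 8 of 17. Csn1s1, Dmbt1 and Trdn were listed with 1 transcript each, in which skipping cannot be seen.

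The sequences below show neighbouring or repeated members in 3 of these genes, chosen because the exons follow each other (Csn1s1 and Col13a1) or recur (Csn1s1 and Dmbt1). Capitals again mark the member.
Csn1s1 (chr5:87675611-87675628, plus strand): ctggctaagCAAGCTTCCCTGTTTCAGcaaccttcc
Csn1s1 (chr5:87675727-87675744, plus strand): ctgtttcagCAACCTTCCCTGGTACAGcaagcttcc
Csn1s1 (chr5:87675855-87675872, plus strand): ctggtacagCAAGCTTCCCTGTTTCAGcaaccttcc
Dmbt1 (chr7:131053194-131053220, plus strand): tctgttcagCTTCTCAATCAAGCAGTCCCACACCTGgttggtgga
Dmbt1 (chr7:131061332-131061358, plus strand): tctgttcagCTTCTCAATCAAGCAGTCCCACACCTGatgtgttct
Col13a1 (chr10:61893915-61893941, minus strand): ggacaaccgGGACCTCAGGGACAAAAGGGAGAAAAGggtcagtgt
Col13a1 (chr10:61894034-61894060, minus strand): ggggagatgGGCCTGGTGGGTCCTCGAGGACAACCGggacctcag
Col13a1 (chr10:61895334-61895360, minus strand): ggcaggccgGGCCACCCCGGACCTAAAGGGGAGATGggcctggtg

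Csn1s1 held a run of 14 members in a row, each of 18 bases, with introns of 98 to 117 bases between them. All began a codon. The 20 members of the gene had 18 distinct sequences, and 1 of these occurred 3 times. Dmbt1, which encodes a scavenger receptor of mucosal surfaces, had 10 members of 27 bases and 1 of 21, and a single 27-base sequence occurred 4 times among them. Col13a1, a transmembrane collagen, held 10 members of 27 bases, of which 5 followed each other. In all, 130 distinct runs of at least 2 neighbouring members without an intron under 50 bases were found in 88 genes. Runs that differed between transcripts counted separately, so several runs of a gene could share exons, as in Tnnt3 and BC051142. BC051142 had runs of up to 9 members, Gm6792 and Tnnt3 of up to 7 and Col23a1 of up to 5. Runs of 4 members were found in Btnl1, Btnl4, Btnl6 and Ermap, all of the butyrophilin family, and in Col25a1. The runs of Btnl1, Btnl4 and Btnl6 had the same lengths in the same order, 21, 27, 27 and 27 bases. Of 180 distinct pairs of neighbours, both were divisible by 3 in 130 and neither was in 13. In 8 of these 13 pairs the lengths together were divisible by 3. Such a sum arises whenever a remainder of 1 meets a remainder of 2, and no share was taken for longer exons.

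Collagen chains carry glycines at regular intervals along the triple helix, and their exons are known to follow this repeat in units of 9 bases. Of 41 collagen genes with internal coding exons, 28 held a member (68.3%), against 6.92% of all gene names with such exons. These genes had a median of 47 internal coding exons, against 7 over all genes, and members made up 4.24% of their internal coding exons, against 1.03% over all genes. Of their 82 members 91.5% were divisible by 3 and 74.4% were divisible by 9, against 26.1% divisible by 9 outside collagen genes. Glycine codons made up 27.8% of 611 full codons in collagen members and 5.55% of codons in other members. The longer exons of collagen genes had 20.5%. Of collagen members 9.76% were skipped, against 2.59% of the longer exons of collagen genes. Col13a1, Col23a1 and Col25a1, membrane collagens, held 30 of the 82. Col18a1 and Col6a1 held 5 each, of which 5 and 2 had 27 bases. Col4a1, a chain of basement membrane collagen, held 2 members, both of 27 bases.

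Of 64 genes in the neuronal microexon list, 48 held a member (75.0%). The listed genes had a median of 27 internal coding exons, and members made up 5.19% of these exons. The 104 members were divisible by 3 in 87.5% of cases and skipped in 77.9%, while 13.1% of the longer exons of the listed genes were skipped. An intron under 50 bases flanked 4 of the 104. Genes entered this list as known carriers of microexons. The shares of genes with a member, of members divisible by 3 and of members skipped are therefore descriptions of the list. The receptor phosphatase gene Ptprd and the cytoskeletal linker gene Macf1 held 6 members each, and Rims1, a gene of the presynaptic active zone, held 5. Clasp1, Clasp2 and Kif1a held 4. Nrxn2, Nrxn3, Eif4g3, Ank3, Kif21a and Shank2 held 3. There were 2 members in each of Agrn, L1cam, Nfasc, Itsn1, Apbb2, Ank2, Kif1b, Dnm1, Dnm2, Unc13a, Vav2, Abi1, Cacna1b, Cacna1d, Kcnma1, Dst and Shank1. A single member was found in Src, Mef2a, Mef2d, Ptprs, Ptprf, Ptprk, Cpeb2, Cpeb3, Cpeb4, Eif4g1, Dnm3, Ap1s2, Unc13b, Daam1, Ppfia1, Ppfia4, Nbea and Shank3. All 6 members of Ptprd were exact cassettes, with lengths of 9 to 27 bases. In Ptprd and in Macf1 the members include exons of 12 and 15 bases that overlap and share 1 end. The exons of Nrxn3 had downstream introns of 14958 to 148538 bases.

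In the muscle list 23 of 33 genes held a member (69.7%). The listed genes had a median of 26 internal coding exons, and members made up 3.67% of these exons. Of their 59 members 67.8% were divisible by 3 and 62.7% were skipped, and 6 had an intron under 50 bases. Of the longer exons of the listed genes 19.2% were skipped. Troponin T anchors the troponin complex to tropomyosin, and its 3 genes supplied 21 of the 59, with 9 in Tnnt3, 6 in Tnnt1 and 6 in Tnnt2. Tnnt3 had 26 transcripts in the annotation, and its members had lengths of 8 to 19 bases, of which 5 were divisible by 3. The first exon of its run of 7 had 14 bases and the last 19, and the 5 between had lengths divisible by 3. In Tnnt2 3 of the 6 members had an intron under 50 bases. Mybpc3, which encodes cardiac myosin-binding protein C, held 4 members, 2 of them of 3 bases. Ryr1, Ryr2 and Ryr3, the calcium release channels, held 2, 3 and 2. Pdlim5 held 5, and Ttn, with 353 internal coding exons, held 1.

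**Figure D5:**
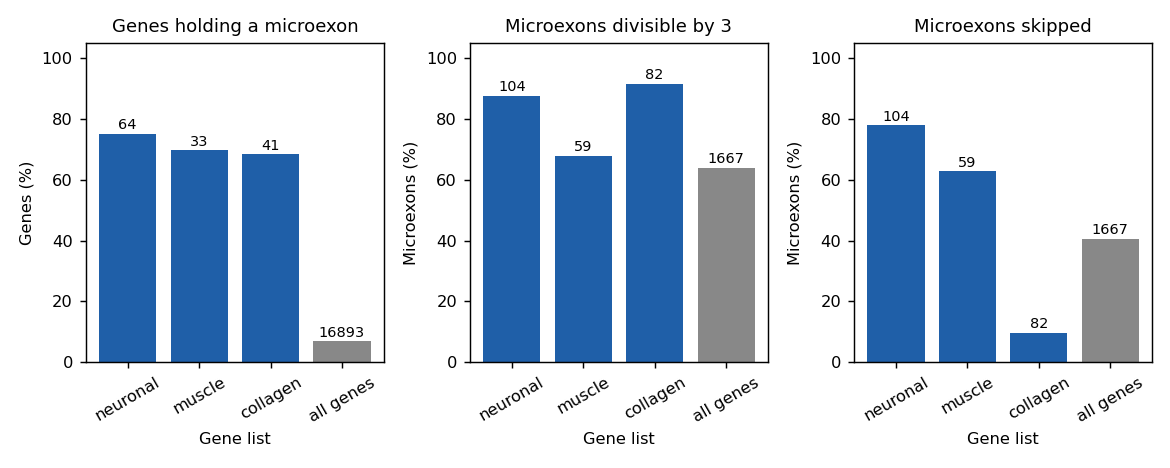
The bars give the percent of genes that hold a microexon (left), the percent of microexons divisible by 3 (middle) and the percent skipped (right) for the neuronal, muscle and collagen lists in blue and for all genes in grey, with the number of genes or microexons above each bar. Neuronal and collagen microexons lie at 87.5% and 91.5% for the share divisible by 3 and at 77.9% and 9.76% for the share skipped. The neuronal list was made of known carriers of microexons, so its bars describe the list.

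Gene groups tied to the study were looked at next. Accumulation of mutant uromodulin in the endoplasmic reticulum (ER) is the subject of the study, and of 48 ER stress genes with internal coding exons 3 held a member (6.25%), close to the 6.92% of all gene names. Of 14 thick ascending limb genes with such exons 1 held a member (7.14%), and of 25 splicing regulators 1 did. Their exons are shown because these are all the members in the 3 lists. Ero1l, Ero1lb and Uggt1, genes of protein folding in the ER that are outside the list and were picked out after their values were seen, held 2, 2 and 1 members. Atp2a1 is added for comparison with its relative Atp2a2.
Derl1 (chr15:57879049-57879075, minus strand): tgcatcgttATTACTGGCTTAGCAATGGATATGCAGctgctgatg
Sel1l (chr12:91831767-91831784, minus strand): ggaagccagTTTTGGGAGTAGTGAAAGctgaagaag
Sel1l (chr12:91833205-91833222, minus strand): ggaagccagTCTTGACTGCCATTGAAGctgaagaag
Atp2a2 (chr5:122500931-122500948, minus strand): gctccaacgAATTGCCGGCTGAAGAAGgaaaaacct
Atp2a1 (chr7:126462500-126462517, minus strand): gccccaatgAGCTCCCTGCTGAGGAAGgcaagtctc
Wnk1 (chr6:119928123-119928149, minus strand): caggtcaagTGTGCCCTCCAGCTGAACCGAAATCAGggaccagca
Srrm4 (chr5:116472507-116472533, minus strand): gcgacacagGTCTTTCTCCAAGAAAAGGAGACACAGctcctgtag

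Derl1, which encodes a membrane protein of ER-associated degradation, held 1 member of 27 bases as the fourth of 8 exons in its only transcript, between introns of 924 and 468 bases. Sel1l, whose product links substrates to the HRD1 ubiquitin ligase in the same process, held 2 members of 18 bases. Both were the fourth of 21 exons, each in 1 of 6 spanning transcripts, and they lay in the same intron with the same flanking letters, and shared 9 of 18 letters. A longer exon of the gene overlaps each of them. Atp2a2, the calcium pump SERCA2 of the ER, which is also in the muscle list, had its 18-base second exon in all 3 spanning transcripts. It shared 13 of 18 letters with the 18-base exon of Atp2a1, the pump of fast muscle. Wnk1, which encodes a kinase that regulates salt transport in the distal nephron, had a 27-base exact cassette in 1 of 6 spanning transcripts, between introns of 6106 and 888 bases. Srrm4, which encodes the splicing factor named above, held a 27-base member in its only spanning transcript.

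The shortest members had 3 bases, a single codon's length. Of 31 such exons 20 were skipped (64.5%), and of the 10 exons of 4 bases 7 were. Exons of 3 bases were found, among other genes, in Clasp1, Clasp2, Cdh23, Asxl1, Asxl2, Mybpc3, Mon2, Tbc1d4, Psd3, Map4k5, Tle2 and Spp1. Asxl1 and Asxl2 encode related chromatin proteins. The 3-base exon of Asxl1 was in all 3 of its spanning transcripts, and the 2 exons of Asxl2 were in 5 of 6 and in 1 of 6. Cdh23, a cadherin of the hair cell tip link, had 2 exons of 3 bases with the same letters in a single intron, present in 2 of 10 and 1 of 9 spanning transcripts. Spp1, which encodes osteopontin, had its 3-base exon in 3 of 7.

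Counting in the study was done per gene over all exon rows, so a read contributed to its gene whether or not it held a microexon. The lengths of members summed to 32535 bases, equal to 0.490% of the 6639069 exon bases of the genes that hold them. Bases shared by overlapping members were counted for each member, while the exon bases of the genes were counted once. A read of the length used in the study can start at 99 places along a spliced transcript so as to hold a 3-base exon in full, and at 75 places so as to hold a 27-base exon in full. How many reads of the 6 libraries crossed a member was not measured here.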

How the data were processed

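RNA was sequenced in 3 libraries of wild type and 3 libraries of C150S mTAL cells. According to the methods, paired reads were demultiplexed with CASAVA 1.8, aligned to mm10 with STAR 2.3.0 and counted with htseq-count on exon rows by gene name. The annotation deposited by the authors for that step was analysed. Its values are start and end positions, used as given. Its release is not given in the sources used here. Library depth and comparisons between the groups were not analysed here.

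The members and gene lists were chosen with earlier results of these data known. An exon listed in several transcripts counted once, with the shortest neighbouring intron. Overlapping exons that differed at a splice site counted as separate members. Collagen genes were taken by symbol. Named are the genes with most members, listed genes with a member, genes with the shortest members and genes with runs (those of 4 or more exons, and for the shortest members a selection). Values of 1 listed gene are not reported here. Families compared letter by letter, and the list of 20 gene pairs behind them, were chosen after members were seen. The annotation holds no replicates, so no test was made. The steps were tested on simulated data, where 820 of 820 planted members were found. Scripts ran in Python 3.11.15 with SciPy 1.17.1 and Matplotlib 3.10.9.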

Additional observations from a re-analysis of the deposited data

How the results depend on the processing

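The number of members changed most with the length limit, to 468 with at most 15 bases and 8728 with at most 51. The share divisible by 3 (63.9%) was 66.5% up to 15 bases, 49.9% up to 51 bases, 56.1% up to 26 bases, 57.4% up to 29, 66.4% without members overlapped by a longer exon and 59.8% with each gene counted once. The share skipped (40.5%) was 61.8% up to 15 bases, 43.1% up to 26, 37.6% up to 29, 35.9% up to 30 and 19.0% up to 51. It was 48.9% in GENCODE M21, 36.4% with each gene counted once, 24.2% for exact cassettes and 51.4% in genes with at least 2 transcripts. The other 52 values stayed within 1.5 times the count or within the 95% interval of the main value, which for a file listed in full measures only its size. Each of these shares stayed above that of longer exons under the same setting, where the length limit was kept.

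Requiring start and stop codon rows left out 0 of 51560 coding transcripts, although 6725 had a coding length not divisible by 3, so this setting gave the same values. The limits of 26 and 29 bases, leaving out transcripts that M21 marks as incomplete, and keeping 1 position of equal-length members in 1 intron, were added after the data were seen. The last 2 gave 63.9% and 63.7% divisible by 3 and 38.6% and 39.1% skipped. No paired analysis was possible because no libraries were compared. Skipping depends on how many transcripts were annotated in any tissue, and was not measured in these cells.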

Other observations

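In 38 cases a gene listed members of equal length at different positions of the same intron, in 37 genes. Both sequences were known for 37 pairs. The letters were identical in 1 pair, the 3-base exons of Cdh23, and differed in 36, with a median identity of 41.2%. None of the 28 pairs longer than 6 bases was identical. Of the 38 pairs, only the 18-base exons of Tnnt3 were internal coding exons of the same transcript. The 12-base pair of Dnm2, which encodes a ubiquitous dynamin, shared 4 of 12 letters and the exons were coding in 1 and in 5 transcripts. The 9-base pair of Kcnma1, a calcium-activated potassium channel gene, shared 4 of 9 letters. The 12-base pair of Il18, a cytokine gene, shared 5 of 12 letters.

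A stop codon in the annotated frame lay within 16 of 1476 members with a full codon outside collagen genes (1.08%) and within 695 of 148879 such longer exons (0.467%). GENCODE M21 held 1639 members as identical exons (98.3%) and 1614 as internal coding exons (96.8%), against 99.8% and 99.4% of longer exons. Of members divisible by 3, 98.3% were internal coding exons there, of the others 94.2%, and of members with an intron under 50 bases 86.3%.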
